A study of Homo sapiens with 2 samples.

Results

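The miR-29 family was described in small RNA libraries of human breast cancer cells with and without knockdown of the long non-coding RNA LOC550643. Its members were every listed mature miRNA whose name has the stem hsa-miR-29a, hsa-miR-29b (29b-1 or 29b-2 for the 5p arms) or hsa-miR-29c, from either arm of the hairpin. Of the 7 possible products, 6 were listed in at least 1 library, out of 425 miRNAs listed in all, and miR-29b-2-5p was listed in neither. The members include hsa-miR-29b-1-5p, written miR-29b-5p in the study, which named it among a few candidates that LOC550643 could bind. The reporter and mimic experiments of the study were on another of these candidates. Here miR-29b-1-5p is set against the main strands of the same hairpins.

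The cells were MDA-MB-231-IV2-1, derived from the triple-negative breast cancer line MDA-MB-231 and selected for metastasis; the cell line entry of both samples reads MDA-MB-231, and the titles name IV2. The control group was transfected with the N.C siRNA and the knockdown group with a pool of siRNAs against LOC550643, and RNA was taken 48 h later. Each group is 1 library of 1 cell line, so no difference between them has a replicate check and no p-value is given. The level of LOC550643 itself in these samples was not analysed here.

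A miRNA hairpin can release a mature strand from its 5′ arm (5p) and one from its 3′ arm (3p), and usually 1 of them accumulates while the other is degraded. Target recognition rests mainly on the seed, bases 2 to 8 of the mature strand. The 3p strands of miR-29a, miR-29b and miR-29c share their seed and are known to repress genes of the extracellular matrix such as collagens, the DNA methyltransferases DNMT3A and DNMT3B, and the survival factor MCL1. In breast tumour cells the family is mostly described as restraining invasion, and much less is known of its 5p strands.

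The mature sequences are shown to make the difference between the arms visible. They are written 5′ to 3′ from RefSeq (GRCh38.p14), with the seed in capitals.
miR-29a-3p: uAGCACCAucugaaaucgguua
miR-29b-3p: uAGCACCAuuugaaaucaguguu
miR-29c-3p: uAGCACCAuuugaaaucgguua
miR-29a-5p: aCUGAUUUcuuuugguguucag
miR-29b-1-5p: gCUGGUUUcauauggugguuuaga
miR-29b-2-5p: cUGGUUUCacaugguggcuuag
miR-29c-5p: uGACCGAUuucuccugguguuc
The 3p strands form a single seed group, AGCACCA, and each of the 4 5p strands has a seed of its own. Among the 350 listed miRNAs with a RefSeq sequence, no miRNA outside the family shared any of these 5 seeds. Counted from the 5′ end, miR-29a-3p and miR-29c-3p differ by 1 base of 22, C10U, with the base of miR-29a-3p given first. miR-29b-3p and miR-29c-3p share their first 17 bases and differ by 3 of the 22 compared (A18G, G21U and U22A, with miR-29b-3p first). The ending AGUGUU of miR-29b-3p, which the other 3p strands lack, is known as a nuclear import element. With miR-29b-1-5p read from its second base on, the 5p strands of the miR-29b hairpins differ by 2 of 22 bases, U11C and U19C in the numbering of miR-29b-1-5p. Their seeds are therefore shifted by 1 base against each other.

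The hairpins are shown because the 2 libraries can be read by locus as well as by strand. They are written 5′ to 3′, each on the minus strand, with both mature strands in capitals.
MIR29A, chr7:130876747-130876810: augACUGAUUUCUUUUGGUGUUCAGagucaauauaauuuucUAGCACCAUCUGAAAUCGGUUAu
MIR29B1, chr7:130877459-130877539: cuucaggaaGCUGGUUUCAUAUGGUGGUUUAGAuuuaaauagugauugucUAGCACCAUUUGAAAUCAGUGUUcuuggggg
MIR29C, chr1:207801852-207801939: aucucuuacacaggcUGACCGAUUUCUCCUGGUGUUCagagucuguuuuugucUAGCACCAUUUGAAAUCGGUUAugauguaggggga
MIR29B2, chr1:207802443-207802523: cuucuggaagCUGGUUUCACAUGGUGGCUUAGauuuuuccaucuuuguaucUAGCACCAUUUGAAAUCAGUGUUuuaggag
MIR29A and MIR29B1 lie 648 bases apart on chromosome 7, and MIR29C and MIR29B2 lie 503 bases apart on chromosome 1. In the GENCODE 29 annotation of GRCh38 both chromosome 1 hairpins lie in an exon of the host gene MIR29B2CHG, a long intergenic non-coding RNA. MIR29B1 lies in an exon of the long intergenic non-coding RNA LINC-PINT. MIR29A overlaps only the end of the same exon and is not held whole by it. Transcripts of the long intergenic non-coding RNA AC016831.6, also on the minus strand, span both of these hairpins whole. The mature miR-29b-3p is identical in MIR29B1 and MIR29B2, so its reads cannot be assigned to a chromosome, whereas every other product comes from 1 locus.

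The deposited values were RPM, reads scaled to a common library total, and summed to 999996 for the control and 999845 for the knockdown. Low values lay on a ladder whose step corresponded to 1 read, 5.29 RPM in the control and 2.03 RPM in the knockdown library, which placed about 189034 and 491541 reads on miRNAs. The knockdown library was thus 2.60 times deeper, and a floor of 3 reads stood at 15.9 RPM in the control and 6.10 RPM in the knockdown library. All intervals below are exact 95% intervals on these estimated reads, rounded to whole reads, while the values themselves keep fractions of a read. They cover counting error only, since reads without molecular identifiers are not independent molecules. The epithelial markers miR-200a-3p, miR-141-3p, miR-429 and miR-205-5p and all 4 blood cell markers were at 0 in both libraries, and the 6 epithelial markers summed to 10.6 RPM in the control and 8.14 RPM in the knockdown library. The neuronal marker miR-124-3p, the liver marker miR-122-5p and the muscle marker miR-133a-3p were at 0 as well. Counted as neuronal, miR-9-5p stood at 169 and 120 RPM. The muscle marker miR-1, listed without an arm, stood at 0 and 6.10 RPM (3 reads). These lists were short, so values of 0 in them do not show that other muscle or blood miRNAs were absent. Outside the lists, miR-206 stood at 52.9 and 36.6 RPM and miR-486-5p at 74.1 and 89.5 RPM in the control and knockdown library.

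The family was carried almost wholly by the 3p strands of miR-29a and miR-29b in both libraries. All members together made 1804 RPM in the control library (341 reads, 0.180% of the library) and 1581 RPM in the knockdown library (777 reads, 0.158%). The 3p strands made 1767 of this in the control and 1516 in the knockdown library. The 5p strands together reached 37.0 RPM in the control (7 reads) and 65.1 RPM in the knockdown library (32 reads).

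miR-29a-3p was the leading member, at 1409.9 RPM in the control library (1248 to 1592) and 1239 RPM in the knockdown library (1143 to 1341). It ranked 41 of 376 and 45 of 375 listed miRNAs. On the log2(RPM + 1) scale its fold change (knockdown against control) was -0.19. Its interval ran from -0.40 to 0.02 and, like all fold change intervals below, was computed from reads without the added 1. The sign was positive when the libraries were scaled by the median of ratios (0.013) or by the 75th percentile (0.096). The interval of the log2 fold change included 0, so a difference in miR-29a-3p was not detectable at this depth.

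miR-29b-3p, the product of hairpins on both chromosomes, stood at 354 RPM in control cells (67 reads, with bounds of 275 and 450 RPM) and 273 RPM after knockdown (134 reads, 228 to 323 RPM). It was lower than miR-29a-3p in both libraries, with no overlap of the intervals, and ranked 76 and 82. Its log2 fold change was -0.38 (-0.81 to 0.07), and the fold was 0.769 of the control with an interval of 0.569 to 1.05. Here too the interval of the log2 fold change included 0.

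miR-29c-3p, which carries the same seed, was close to absent. It was listed at 2.65 RPM in the control library, which is 0.501 of a read, and at 4.07 RPM in the knockdown library, which is 2 reads. Both values were under the 3-read floor of their library and no fold is given. The miR-29a-3p value of the control library also ended in a fraction of a read (266.5 reads), and the fractions of miR-29a-3p and miR-29c-3p there add up to a whole read. Since these strands differ at a single base, how the authors' tool divided reads between them is uncertain, and its part in these values was not tested.

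**Figure D1:**
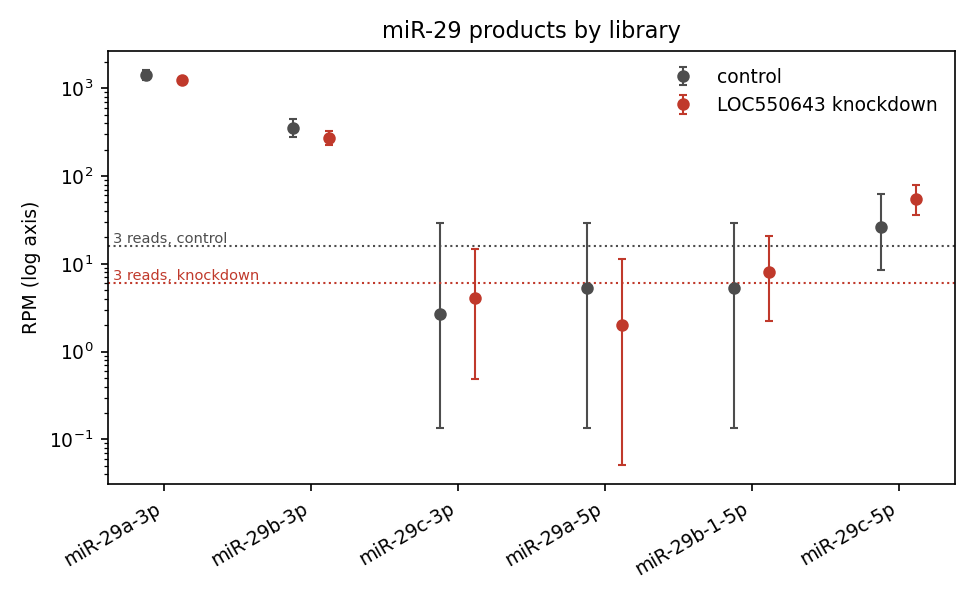
Level of each listed miR-29 product in the control (grey) and LOC550643 knockdown (red) library, in RPM on a log axis, with exact 95% Poisson intervals as bars and the value of 3 reads in each library as dotted lines. miR-29a-3p and miR-29b-3p stood between 273 and 1409.9 RPM, and miR-29c-3p, miR-29a-5p and the control value of miR-29b-1-5p stood under the lines, with 1 library per group.

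Within the 3p strands, miR-29a-3p held 79.8% in the control library (75.2 to 84.1) and 81.7% in the knockdown library (78.8 to 84.5). The share of miR-29b-3p was 20.1% (15.9 to 24.8) and 18.0% (15.3 to 20.9), and that of miR-29c-3p 0.150% (0.00758 to 1.66) and 0.269% (0.0325 to 0.966). These shares are taken within a library and do not depend on the scaling between libraries. The order miR-29a-3p, miR-29b-3p, miR-29c-3p was the same in both libraries with no overlap between neighbours, and for each of the 3 strands the intervals of control and knockdown overlapped.

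Summed over the 3p strands, the log2 fold change was -0.22 (-0.41 to -0.03), which excluded 0 for counting error alone, while it came to -0.022 when scaled by the median of ratios and turned to 0.061 under that by the 75th percentile. Before the pseudocount is added, these scalings shift all log2 fold changes up by 0.20 and 0.28, and over all 425 miRNAs the median was itself -0.20. The summed 3p strands thus lay next to the median of the listed miRNAs.

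hsa-miR-29b-1-5p rested on 1 read in the control library (5.29 RPM, 0.134 to 29.5) and on 4 reads after knockdown (8.14 RPM, 2.22 to 20.8). It ranked 277 in the control and 251 in the knockdown library. The interval of the control library contained that of the knockdown library, and the knockdown value of 8.14 RPM was under the 3-read floor of the shallower control, so a change was not detectable at this depth and no fold is given. In all, 102 miRNAs had 1 read in the control library. Of these, 18 (17.6%) had at least 4 reads in the knockdown library, 45 had none, and the median was 1 read.

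Against the main strand of its stem, miR-29b-1-5p was a minor product in both libraries. With 1 read beside 67 of miR-29b-3p it made 1.47% of the miR-29b reads in the control (0.0372 to 7.92), and with 4 beside 134 it made 2.90% in the knockdown library (0.795 to 7.26). Because miR-29b-3p also comes from MIR29B2, this share is a lower limit for MIR29B1 alone, whose own 3p reads cannot be told apart from those of MIR29B2. The 5p product of the other hairpin, miR-29b-2-5p, had no read in either library. Its exact 95% upper bounds were 19.5 RPM in the control and 7.50 RPM in the knockdown library, beside the 3-read floors of 15.9 and 6.10 RPM.

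The remaining 5p strands differed in level between stems. miR-29a-5p, from the hairpin of the most abundant 3p strand, had 1 read in each library, listed as 5.29 RPM in the control and 2.03 RPM in the knockdown library, and no fold is given. It made 0.374% of the miR-29a reads in the control (0.00945 to 2.06) and 0.164% in the knockdown library (0.00415 to 0.910).

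miR-29c-5p was the most abundant 5p strand, at 26.5 RPM in control cells (5 reads, bounds 8.59 and 61.7) and 54.9 RPM after knockdown (27 reads, bounds 36.2 and 79.9). It ranked 182 in the control and 139 in the knockdown library. Its log2 fold change of 1.03 was bounded by -0.34 and 2.79, so that a difference was not detectable at this depth, and it was between 0.83 and 1.30 under the scalings and pseudocounts tried. It held 71.4% of the 5p reads of the family in the control (29.04 to 96.3) and 84.4% in the knockdown library (67.2 to 94.7).

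The miR-29c stem had the opposite arm order from the other stems of the family. miR-29c-5p made 90.9% of the miR-29c reads in the control library (35.9 to 99.6) and 93.1% in the knockdown library (77.2 to 99.2). The control share rests on 5.50 estimated reads, and both shares depend on how reads were divided between miR-29c-3p and the near-identical miR-29a-3p, which was not tested. In the library with more reads the 5p arm led by 27 reads to 2.

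Among stems whose arms carry the same name, 66 had both arms listed in both libraries, and neither arm order was rare. Stems with numbered arms, miR-29b among them, are not in this count. The 5p arm led in 30 of them in the control and 32 in the knockdown library, and the lead passed to the other arm in 7, with 1 further stem tied in the control. The median share of the minor arm was 6.98% in the control and 6.24% in the knockdown library. miR-29a was at the low end, with 11 stems below its minor-arm share in the control and 5 in the knockdown library.

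**Figure D2:**
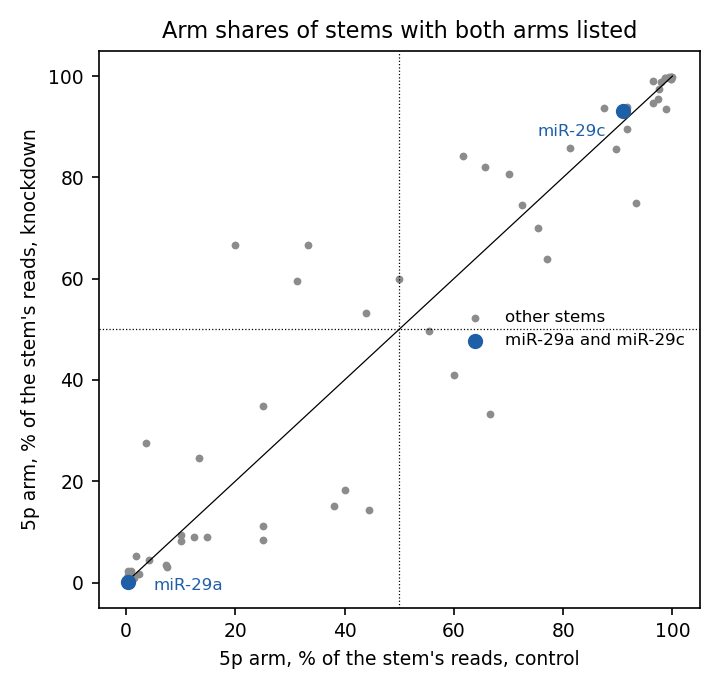
Share of the 5p arm in the reads of each of 66 stems with arms of the same name, in percent, in the control library (horizontal axis) and the knockdown library (vertical axis), with equal shares on the solid line and 50% on the dotted lines. miR-29a lay at 0.374% and 0.164%, and miR-29c at 90.9% and 93.1%, so both stems kept their leading arm.

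The share of 5p strands in all reads of the family was 2.05% in the control library (0.829 to 4.18) and 4.12% in the knockdown library (2.83 to 5.76), with overlapping intervals. It rested on miR-29c: without that stem, a setting chosen after seeing the data, it was 0.596% in the control and 0.668% in the knockdown library. The summed 5p strands had a log2 fold change of 0.80 (-0.39 to 2.24), which did not exclude 0.

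Grouped by locus, a grouping chosen after the values were seen, the products specific to chromosome 1 (both miR-29c strands and miR-29b-2-5p) made a small part of the family. They held 5.50 of the 274 locus-specific reads in the control library, 2.01% (0.808 to 4.71). In the knockdown library they held 29 of 643 reads, 4.51% (3.04 to 6.41). The intervals overlapped, and miR-29b-3p, which both loci encode, is not in this count.

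By size of change, miR-29c-5p was the only 1 of the 6 listed members to exceed a 2-fold increase. The only 1 beyond a 2-fold decrease was miR-29a-5p, whose 1 read in each library is worth fewer RPM in the deeper knockdown library. Among all 425 miRNAs 17.9% exceeded 2-fold upwards and 27.3% downwards, so these counts lie near the background. Under the 75th-percentile scaling the counts of 76 higher and 116 lower miRNAs became 85 and 77. Of the members, 3 exceeded 3 reads in both libraries, and of these 1 was beyond 2-fold upwards and 0 downwards, where 3.48% and 10.9% of the 201 miRNAs with such reads were. The interval of that 1 member, miR-29c-5p, included 0. Of the 6 members 3 had a higher and 3 a lower value in the knockdown library, beside 180 higher and 245 lower of all 425. The median log2 fold change of the members was 0.14 beside -0.20 over all miRNAs, but it includes miR-29c-3p, miR-29a-5p and miR-29b-1-5p, for which no fold is given.

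**Figure D3:**
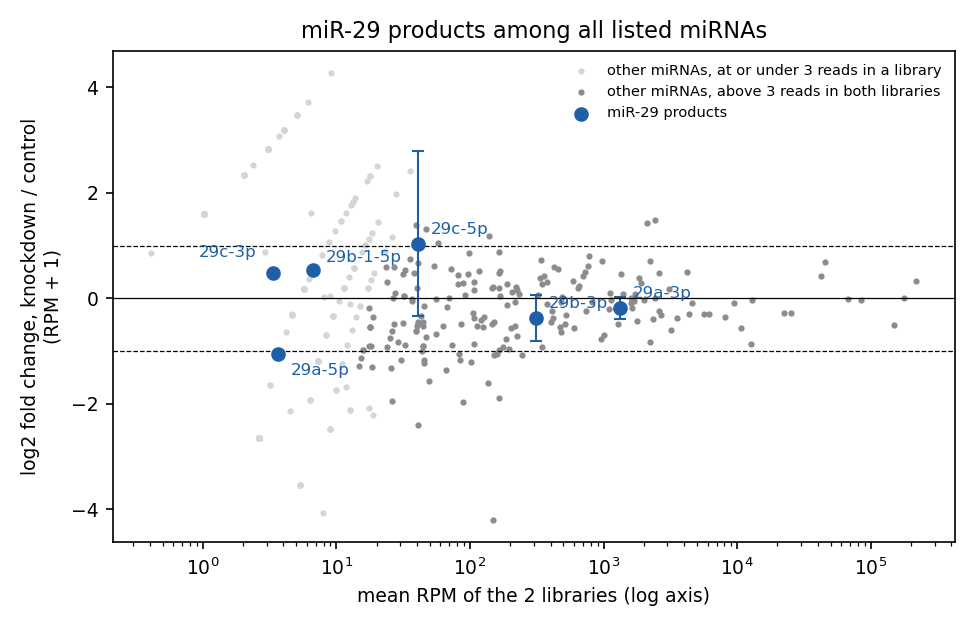
Log2 fold change (knockdown against control, RPM + 1) plotted against the mean RPM of both libraries on a log axis, for 425 miRNAs, with miR-29 products in blue and dashed lines at 2-fold. Bars are 95% counting intervals, computed without the added 1, of the 3 members above 3 reads in both libraries. Each of these intervals includes 0. The sign of miR-29a-3p (-0.19) turned under other scalings.

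Beside miRNAs of like abundance, miR-29a-3p and miR-29b-3p lay below the median log2 fold change but inside the range. Of the 35 other miRNAs within 2-fold of the mean RPM of miR-29a-3p, 11 had a lower and 24 a higher log2 fold change, with a median of -0.03 and a range from -0.82 to 1.48. For miR-29b-3p, 16 of 43 were lower and 27 higher, with a median of -0.08. miR-29c-5p was nearer the upper end, with 53 of 60 lower and 7 higher, at a level where those miRNAs ranged from -2.40 to 2.42.

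The miRNAs nearest to miR-29a-3p in log2 fold change, taken from miRNAs averaging 100 RPM or more and over the 2 libraries only, were miR-125b-5p (-0.19), miR-25-3p (-0.20) and miR-24-3p (-0.20). Their levels went from 1740.5 to 1528 RPM, from 1164 to 1015 RPM and from 1312 to 1141 RPM. In the control library miR-29a-3p lay directly between miR-425-5p at 1434 RPM and miR-320a at 1398 RPM, and the interval of miR-29a-3p held both values.

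LOC550643 corresponds to the gene NBDY on the plus strand of chromosome X, and its 3 isoforms, given in the study as V1 (718 nt), V2 (581 nt) and V3 (476 nt), were searched for the reverse complement of each member's seed on the sense strand. Only miR-29b-1-5p had a match to all of bases 2 to 8. The study drew this miRNA from those predicted to bind LOC550643 and higher after knockdown in these same libraries. The match is therefore no independent support. The motif AAACCAG began at base 325 in V1 and V2 and at base 83 in V3. These are the last 7 bases of exon 1, chrX:56729583-56729589 in GRCh38, past the annotated coding sequence that ends at 56729557. A further match to its bases 2 to 7 (AACCAG) lay in exon 3, beginning at base 629 of V1, base 492 of V2 and base 387 of V3.

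The site of miR-29b-1-5p in V1, bases 314 to 343, is shown with the 7-base motif in capitals, below it the only match of the main strands, V1 bases 353 to 382 with the match to bases 3 to 8 of their seed in capitals, and then the pooled siRNA that spans the end of exon 1 with the bases that overlap the first motif in capitals.
miR-29b-1-5p site: tctcccaccctAAACCAGtctttgagtgat
miR-29a/b/c-3p match: actccatttcccTGGTGCattcatataata
siRNA: CAGucuuugagugauugc
The sequence of this siRNA is that of V1 bases 329 to 346, so 3 bases of the miR-29b-1-5p motif lie inside the stretch it covers. The 3p strands had no match to bases 2 to 8 (TGGTGCT) or 2 to 7 (GGTGCT) in any isoform. Their TGGTGC match lay in exon 2, from base 365 in V1 and from base 123 in V3, and V2, which skips exon 2, held none. miR-29a-5p had a match to bases 2 to 7 (AATCAG) in exon 3 of each isoform, and miR-29c-5p, the most abundant 5p strand, had none.

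**Figure D4:**
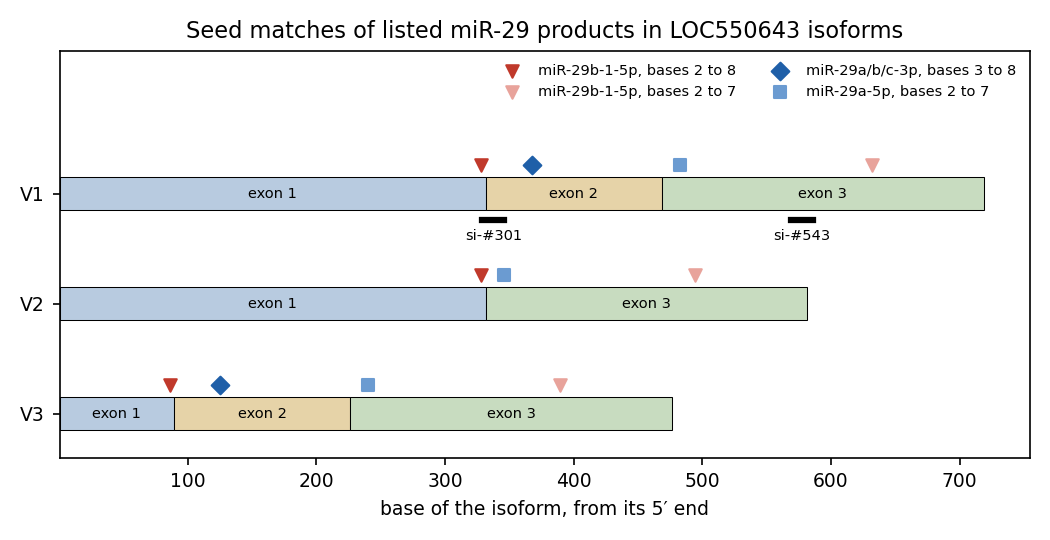
Positions of seed matches of the listed miR-29 products along LOC550643 isoforms V1, V2 and V3, in bases from the 5′ end, with exons as boxes and the stretches covered by the siRNAs as black bars on V1. The 7-base match of miR-29b-1-5p lies at the end of exon 1 in all 3 isoforms, and the 3p strands have a match in exon 2 only.

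Such matches were not rare among the listed miRNAs. Of the 350 with a sequence, 21 (6%) had a match to bases 2 to 8 in V1, 15 (4.29%) in V2 and 18 (5.14%) in V3, and 16.6% had one to bases 2 to 7 in V1. Of the 21 with the 7-base match in V1, miR-29b-1-5p among them, 13 were higher and 8 lower in the knockdown library (median log2 fold change 0.53), beside 137 higher and 213 lower of all 350 (median -0.30). Of the 8 that exceeded 3 reads in both libraries, 4 were higher and 4 lower (median -0.15), beside 60 and 111 of 171 (median -0.20). The study chose miR-29b-1-5p and the miRNAs named with it through predicted binding and their levels in these same libraries. This comparison is therefore not independent of that choice. No conclusion is drawn from it. A match of this kind describes letters in a sequence and is no measure of binding.

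miR-29b-1-5p was not alone in resting on few reads among the miRNAs the study named with it. Of the other 4, 2 exceeded 3 reads in both libraries, and 2 had 0 RPM in the control and at most 3 reads in the knockdown library. Among all 425 listed miRNAs, 201 exceeded 3 reads in both libraries, so the count of named miRNAs above 3 reads lies near the background. The control library listed 376 of the 425.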

How the data were processed

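Small RNA of MDA-MB-231-IV2-1 cells, 1 control and 1 LOC550643 knockdown library, was sequenced by the authors, and the deposited values are RPM of mature miRNAs, assigned with the authors' own tool. The submitters' processing notes name FastQC, cutadapt and hg38; the aligner and the miRNA release are not given in the sources used here. Missing miRNAs were set to 0. The value of 1 read was estimated from the spacing of low values; 92.9% of 253 control and 91.5% of 224 knockdown values up to 20 reads were whole within 0.1 read, so no count test was run. Exact Poisson and Clopper-Pearson intervals and a pseudocount of 1 RPM were used, with Python 3.11.15, numpy 2.4.6, scipy 1.17.1, pandas 2.3.3 and matplotlib 3.10.9, and the code was tested on simulated data. Named miRNAs were all miR-29 products, the 3 with a mean of at least 100 RPM nearest to miR-29a-3p in log2 fold change, its neighbours in control RPM, and the other 4 miRNAs named by the study, as counts; marker miRNAs of other cell types were listed separately. Of 425 names, 350 matched a RefSeq sequence. Alternatives were other scalings, pseudocounts, filters and left-out stems. The members and lists were chosen with earlier results of these data known.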

Additional observations from a re-analysis of the deposited data

How the results depend on the processing

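No paired analysis was possible because control and knockdown are 1 library each. Of 45 alternative values, 30 kept their direction and lay within the counting interval of the reported value or, for counts, within 1.5 times of it. The log2 fold change of the summed 3p strands (-0.22) was -0.022 under median-of-ratios scaling and 0.061 under 75th-percentile scaling. That of miR-29a-3p (-0.19) was 0.013 and 0.096. Each scaling shifts all log2 fold changes by a common amount before the pseudocount, and in these libraries the shift was upward. Without miR-29a-3p the sum came to -0.37. The log2 fold change of miR-29b-3p stayed between -0.38 and -0.10 and that of miR-29c-5p between 0.83 and 1.30. The counts beyond 2-fold, 76 higher and 116 lower miRNAs, were 19 and 25 with a pseudocount of 10 RPM, 3 and 7 among those averaging 100 RPM or more, and 28 and 66 when above 0 in both libraries; 77 were lower under the 75th-percentile scaling. The share of 5p strands (2.05% in the control, 4.12% in the knockdown library) was 8.16% and 18.6% without miR-29a, and 0.596% and 0.668% without miR-29c, a setting chosen after seeing the data. Depth limits the 5p strands, since 3 reads of the control library are worth 15.9 RPM.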
